A study of Mus musculus with 9 samples.

Results

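The 9 genes described here, *Dhrs9*, *Dhrs3*, *Rdh10*, *Aldh1a1*, *Aldh1a2*, *Aldh1a3*, *Crabp2*, *Rarb* and *Cyp26b1*, code for proteins that make, carry, sense or break down retinoic acid. They were picked by gene symbol from the 23332 gene rows, and each symbol matched a single row. They were picked with their values in these samples already known, so the members' values are given as a description and no p-value is attached to them. RNA came from FVB MOE cells, a line of secretory epithelium from the oviduct of FVB mice that was grown from a single clone, so the 9 samples stand for that clone and not for several animals. All cells were kept for 48 h without hormone, with new medium after 24 h, and then received 0.1% DMSO (the solvent), 1 nM 17-betaestradiol (E2) or 100 nM 4-hydroxytamoxifen (4OHT, the active metabolite of tamoxifen) for 24 h. There were 3 samples per condition, numbered replicate 1 to 3 in the labels, and the doses of E2 and 4OHT differed. Before the starvation the cells of every group had grown in medium that held E2, epithelial growth factor and insulin. The labels do not say that the samples came from separate cultures, so p-values measure the spread between these samples, which may be technical.

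Retinoic acid is made from vitamin A in a pair of oxidation steps. Retinol dehydrogenases turn retinol into retinal, a reductase can turn retinal back into retinol, and retinal dehydrogenases then oxidise retinal to retinoic acid, which cannot be reversed. Retinoic acid acts through nuclear receptors of the RAR family paired with RXR, is escorted inside the cell by binding proteins, and is cleared by enzymes of the CYP26 family. In the female reproductive tract, vitamin A is known as a regulator of epithelial differentiation.

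The values are FPKM, the authors' estimate of fragments relative to transcript length and to the size of the library, so levels can be set side by side between genes. FPKM summed to between 522517 and 588640 per sample. Relative depth ran from 0.818 to 1.18 of the first DMSO sample. It was read from the most common ratio of FPKM in that sample to FPKM in each other sample, over rows of low values. In every condition replicate 1 stood apart from replicates 2 and 3 in several of the genes given here. *Esr1* (estrogen receptor alpha) and the estrogen targets *Pgr* and *Greb1* were higher in E2 than in DMSO under all 3 replicate numbers, and *Pgr* in the first DMSO sample was 7.62 times the mean of the other two DMSO samples. The secretory epithelial markers *Pax8* (105 to 150 FPKM) and *Krt8* (334 to 623 FPKM) were high, whereas *Epcam* and *Cdh1* did not exceed 0.138 and 0.422 FPKM and *Foxj1*, which marks ciliated cells, lay between 8.95 and 15.9 FPKM. Summed leukocyte markers stayed at or under 0.0344 FPKM and summed endothelial markers at or under 1.42. Of the smooth muscle genes, *Acta2* reached 1724 FPKM and *Cnn1* lay between 10.0 and 36.5, with *Myh11* at or under 0.305. With E2, *Acta2* was above DMSO and *Cnn1* below it under all 3 replicate numbers. The mesothelial markers *Msln* and *Wt1* were at 99.1 to 188 and 26.3 to 45.3 FPKM. The summed level of 8 secretory epithelial markers was 2322 to 2562 FPKM in E2 against 1415 to 1558 in DMSO and 1473 to 1673 in 4OHT. Keratins carried this sum, *Krt7* averaging 816 FPKM in E2 and 310 in DMSO, while *Pax8* averaged 133 and 119 FPKM and *Ovgp1* (oviductal glycoprotein) 1.65 and 2.24. The summed level of 7 ciliated cell markers was 14.0 to 17.8 FPKM in E2 against 18.1 to 20.7 in DMSO. *Foxj1* carried this sum and was below DMSO with E2 under all 3 replicate numbers, as was *Ccdc39*. *Rsph1* was above DMSO under all 3 (3.68 against 3.10 FPKM on average), as were *Dnah5* and *Tekt1* at or under 0.188 FPKM. The summed level of 4 endothelial markers was 1.18 to 1.42 FPKM in E2 against 0.638 to 0.837 in DMSO. *Kdr* carried this sum, averaging 1.17 FPKM in E2 and 0.599 in DMSO. *Pecam1*, *Cdh5* and *Tek* did not exceed 0.100 FPKM and had E2 above DMSO in 1, 1 and 2 of 3 replicate numbers. The mesothelial markers *Msln* and *Upk3b* were also below DMSO with E2 under all 3 numbers, at 135 against 162 and 1.65 against 2.96 FPKM on average. *Wt1* did not share this direction, being above DMSO in 2 of 3 numbers, at 32.6 against 33.1 FPKM on average. In limma with Benjamini-Hochberg adjustment, *Krt7* passed for E2 against DMSO without the block (adjusted p 0.0476). Only with the replicate number as a block, limma called *Foxj1*, *Msln*, *Upk3b* and *Cnn1* lower (0.0176, 0.012, 0.00612 and 0.0493). In the same way it called *Pax8*, *Krt8*, *Krt18*, *Krt19*, *Acta2* and the fibroblast marker *Dcn* higher (0.0432, 0.00204, 0.00134, 0.00295, 0.0145 and 0.00321). *Kdr* was also called higher, though only its E2 samples reached 1 FPKM. Beside these, the block called 10.4% of all rows higher and 4.63% lower. The summed level of 7 fibroblast markers was 10.8 to 23.3 FPKM in E2 against 3.69 to 7.83 in DMSO, with *Dcn* alone at 6.05 to 21.0 FPKM in E2. *Col1a1* lay between 1.84 and 6.73 FPKM and averaged 3.30 in E2 and 3.83 in DMSO. *Col1a2*, *Col3a1* and *Lum* did not exceed 0.0141 FPKM in any sample. The part of these shifts in the results given here was not tested. In bulk RNA, fewer cells of a type and less RNA per cell cannot be told apart.

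Under DMSO, 3 genes of the pathway were well expressed, 3 were weak and 3 were close to the bottom of the scale. The strongest was *Rdh10*, at 41.9 ± 4.08 FPKM (SD, n = 3), followed by *Aldh1a2* at 40.5 ± 2.80 and *Dhrs3* at 30.3 ± 25.3. The ranges of these neighbours overlapped, from 37.3 to 44.8 FPKM for *Rdh10*, from 38.3 to 43.6 for *Aldh1a2* and from 13.5 to 59.4 for *Dhrs3*, so their order is not resolved. *Crabp2* (2.65 ± 0.598 FPKM), *Aldh1a3* (2.36 ± 0.819) and *Dhrs9* (1.71 ± 1.80) came next, with ranges that also overlapped and that lay wholly below *Dhrs3*. *Cyp26b1* (0.125 ± 0.0739 FPKM), *Rarb* (0.110 ± 0.0555) and *Aldh1a1* (0.0586 ± 0.0178) lay wholly below *Dhrs9*, again with overlapping ranges among themselves. None of the 9 genes was listed at exactly 0 in any sample, a value that occurred at least once in 266 gene rows whose other values had a median of at least 5 FPKM. The plot of DMSO levels sets the 9 genes among other genes of retinoid metabolism.

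**Figure D1:**
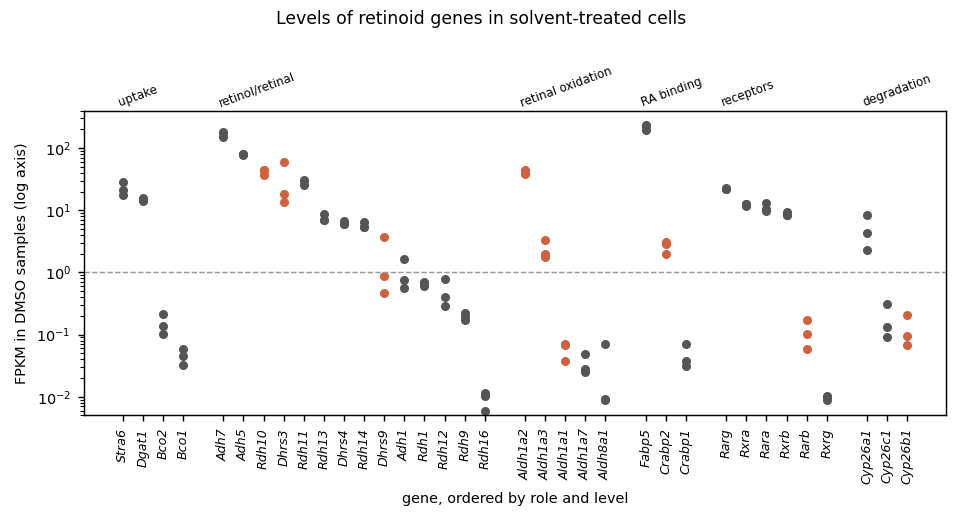
FPKM of retinoid genes in the 3 DMSO samples, 1 point per sample on a log axis, with the 9 genes described here in orange and other genes of the wider list in grey, ordered by role. Genes at 0 in any of these samples are not drawn, and the dashed line marks 1 FPKM. *Rdh10*, *Aldh1a2* and *Dhrs3* lie above 10 FPKM and *Cyp26b1*, *Rarb* and *Aldh1a1* below 1.

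*Dhrs9* codes for a short-chain dehydrogenase that oxidises retinol and also some hydroxysteroids, and lies on the plus strand at chr2:69380445-69404533 of GRCm38 (the assembly that mm10 names), with 5 exons. Its FPKM was 3.78, 0.878 and 0.464 in the DMSO samples of replicates 1, 2 and 3, 21.5, 14.0 and 8.35 in the E2 samples, and 1.07, 0.754 and 0.336 in the 4OHT samples. Every E2 sample was above every DMSO and every 4OHT sample, and within each condition replicate 1 was the highest and replicate 3 the lowest. Outside E2, only the first DMSO and the first 4OHT sample reached 1 FPKM. *Dhrs9* thus passed the filter for testing, 1 FPKM in at least 3 samples, only through its E2 samples. Within a replicate number, E2 exceeded DMSO by 5.69-fold, 15.9-fold and 18.0-fold, the smallest ratio being that of replicate 1, where the DMSO level was also the highest. 4OHT stood at 0.283, 0.858 and 0.726 of its DMSO partner, and the DMSO and 4OHT ranges overlapped. The mean was 14.6 ± 6.58 FPKM with E2, 8.56 times the DMSO mean and 20.3 times the 4OHT mean of 0.720 ± 0.367. On the log2(FPKM + 1) scale, which understates differences of weak genes, the fitted difference from DMSO was 2.64 for E2 and -0.48 for 4OHT. Each had an SE of 0.47 without the replicate number as a block and 0.22 with it. Without replicate 1 of each condition these differences were 2.84 and -0.12. Without the first DMSO sample alone, the 4OHT difference was 0.03, in a fit without the block that kept the first 4OHT sample. The size of the 4OHT difference thus depended on replicate 1, while 4OHT was below DMSO within each replicate number.

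With E2 the place of *Dhrs9* in the order of levels moved. Its E2 range of 8.35 to 21.5 FPKM lay above those of *Aldh1a3* (2.83 to 4.11) and *Crabp2* (1.25 to 2.91) in the same samples, while under DMSO the 3 ranges overlapped. It stayed below the E2 range of *Dhrs3*, which was 28.0 to 64.9 FPKM.

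The stretch of DNA in front of *Dhrs9* is shown because this gene had the widest separation between E2 and the other conditions among the 9. It is taken from RefSeq's promoter window on GRCm38.p6, which reaches from 250 bases before the start site to 50 bases after it, and is cut at the first base of the annotated gene. It covers chr2:69380212-69380444 on the plus strand, written 5′ to 3′. The capitals mark the AGGTCA half-site, the 6 letters that nuclear receptors of several kinds are known to recognise, which is found here on the opposite strand, 88 to 83 bases before the start site.

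Dhrs9: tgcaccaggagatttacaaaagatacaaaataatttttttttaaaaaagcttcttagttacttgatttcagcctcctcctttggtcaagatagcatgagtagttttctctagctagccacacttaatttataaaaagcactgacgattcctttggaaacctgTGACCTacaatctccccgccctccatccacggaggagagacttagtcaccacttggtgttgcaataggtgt

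Searched on both strands, AGGTCA was in 16.3% of all 32851 promoter windows, so its presence here is common. An inverted repeat of the hexamer AGGTCA, or of its variants AGTTCA and also GGGTCA and also GGTTCA, spaced by 3 bases, which is the arrangement of an estrogen response element, was in 0.07% of all windows and in none of the 9 windows that covered 6 of the 9 genes. These letters are a description of the window and do not show binding.

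*Rdh10* codes for the membrane-bound retinol dehydrogenase that carries out most of the first oxidation step in the embryo, and lies on the plus strand at chr1:16105774-16133734, with 6 exons. Its FPKM was 44.8, 37.3 and 43.7 in DMSO, 76.3, 58.2 and 73.7 in E2, and 56.6, 43.2 and 52.5 in 4OHT. All E2 samples were above all DMSO and all 4OHT samples, and replicate 2 was the lowest in each condition. The ratio of E2 to DMSO was 1.70, 1.56 and 1.68 within the replicate numbers, a narrow range compared with that of *Dhrs9*. The ratio of 4OHT to DMSO was 1.26, 1.16 and 1.20, so 4OHT lay between DMSO and E2 under each replicate number, although the DMSO and 4OHT ranges overlapped. The fitted log2 difference was 0.71 for E2 minus DMSO, 0.27 for 4OHT minus DMSO and 0.44 for E2 minus 4OHT. For E2 minus DMSO the SE was 0.14 without the replicate number as a block and 0.035 with it.

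*Dhrs3* codes for the reductase that returns retinal to retinol, the step that opposes *Rdh10*, and lies on the plus strand at chr4:144892827-144928209, with 6 exons in its longest transcript. Its FPKM was 59.4, 13.5 and 18.0 in DMSO, 64.9, 28.0 and 31.2 in E2, and 55.9, 19.0 and 20.7 in 4OHT. In all conditions replicate 1 was far above the others, by 3.77-fold, 2.20-fold and 2.81-fold over the mean of replicates 2 and 3, so the groups overlapped widely. E2 exceeded DMSO by 1.09-fold, 2.07-fold and 1.73-fold within the replicate numbers. The 4OHT samples stood at 0.941, 1.41 and 1.15 of their DMSO partners. The fitted log2 difference of E2 from DMSO was 0.63, with an SE of 0.63 without the block, as large as the difference. With the replicate number as a block the SE was 0.15. Without replicate 1 the difference was 0.88 (SE 0.14). With 1 sample left out of the fit without the block, it ran from 0.22 without the second DMSO sample to 1.25 without the first. For 4OHT the difference was 0.19, and it ran from -0.29 without the first 4OHT sample to 0.81 without the first DMSO sample.

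**Figure D2:**
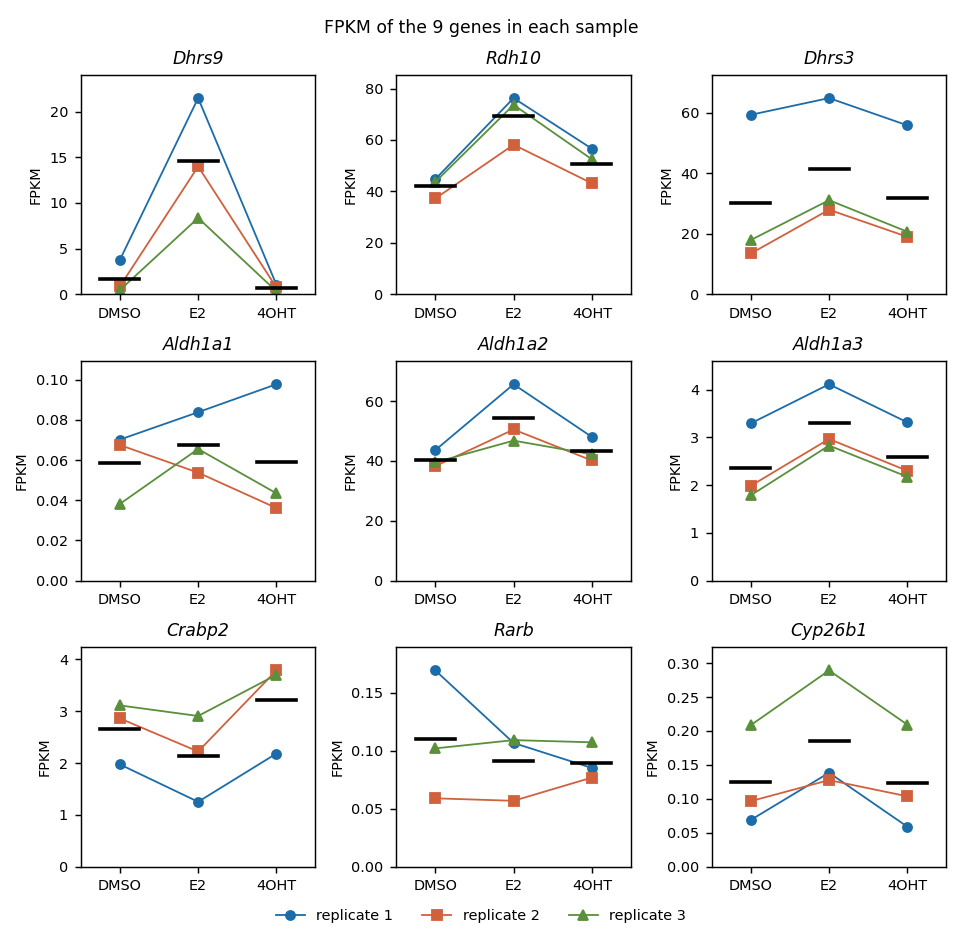
FPKM of the 9 genes in the DMSO, E2 and 4OHT samples, 1 panel per gene with its own linear axis from 0, lines joining samples with the same replicate number and black bars at the mean of 3 samples. E2 samples of *Dhrs9*, *Rdh10* and *Aldh1a2* lie above all DMSO samples, and replicate 1 of *Dhrs3* is 55.9 FPKM or higher in every condition.

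The 3 retinal dehydrogenases catalyse the last step of synthesis and differed strongly in level. *Aldh1a2* (plus strand, chr9:71215789-71296243, 14 exons), the enzyme that supplies most retinoic acid in the early embryo, was the main one in these cells. Its FPKM was 43.6, 38.3 and 39.6 in DMSO, 65.7, 50.5 and 46.8 in E2, and 48.1, 40.2 and 42.2 in 4OHT. Each E2 sample exceeded every DMSO sample, but the lowest E2 value was below the highest 4OHT value. The ratio of E2 to DMSO was 1.5, 1.32 and 1.18, and that of 4OHT to DMSO was 1.10, 1.05 and 1.07. The fitted log2 difference of E2 from DMSO was 0.40, with an SE of 0.13 without the block and 0.066 with it. The difference was 0.26 without the first E2 sample, in a fit without the block that kept the first DMSO sample.

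*Aldh1a3* (minus strand, chr7:66390890-66427517, 13 exons) was present at a much lower level. Its FPKM was 3.29, 1.99 and 1.79 in DMSO, 4.11, 2.97 and 2.83 in E2, and 3.32, 2.30 and 2.18 in 4OHT. Replicate 1 was the highest in each condition, so the E2 and DMSO ranges overlapped, while E2 exceeded DMSO within each number by 1.25-fold, 1.49-fold and 1.58-fold. 4OHT stood at 1.01, 1.16 and 1.22 of DMSO within the numbers. The fitted log2 difference was 0.37 for E2, with an SE of 0.20 without the block and 0.052 with it. In the fit without the block the difference lay between 0.24 without the first E2 sample and 0.56 without the first DMSO sample. For 4OHT it was 0.11. It changed sign, to -0.03, without the first 4OHT sample, in a fit without the block that kept the first DMSO sample.

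*Aldh1a1* (plus strand, chr19:20492715-20643465) was between 0.0361 and 0.0978 FPKM in the 9 samples and did not pass the filter for testing. Its reads can be shared with the close copy *Aldh1a7*, which was itself at or under 0.0493 FPKM, so both values are uncertain. The ratio of E2 to DMSO was 1.19, 0.797 and 1.72, without a common direction.

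*Crabp2*, a small cytoplasmic protein that delivers retinoic acid to the receptors in the nucleus, lies on the plus strand at chr3:87948666-87953376 and has 4 exons. Its FPKM was 1.97, 2.86 and 3.11 in DMSO, 1.25, 2.22 and 2.91 in E2, and 2.18, 3.79 and 3.70 in 4OHT. It was the one tested member with E2 below DMSO and below 4OHT under every replicate number, and the one with replicate 1 lowest in each condition. E2 stood at 0.634, 0.777 and 0.934 of DMSO, and 4OHT exceeded DMSO by 1.11-fold, 1.32-fold and 1.19-fold. All group ranges overlapped. The fitted log2 difference was -0.24 for E2 minus DMSO, 0.20 for 4OHT minus DMSO and -0.45 for E2 minus 4OHT. For E2 minus DMSO the SE was 0.24 without the block and 0.077 with it. The difference of E2 from DMSO was -0.026 without the first E2 sample and -0.42 without the third. Both came from fits without the block that kept the DMSO sample of the same replicate number.

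*Rarb* codes for the retinoic acid receptor beta and is a textbook target of retinoic acid through a repeat in one of its own promoters. It lies on the minus strand at chr14:16430839-16819156. Its FPKM was 0.169, 0.0589 and 0.102 in DMSO, 0.107, 0.0568 and 0.109 in E2, and 0.0851, 0.0768 and 0.107 in 4OHT. At these levels it did not pass the filter, the groups overlapped, and E2 was above DMSO in 1 of 3 replicate numbers. A difference in *Rarb* was therefore not detectable here.

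*Cyp26b1*, an enzyme that clears retinoic acid, lies on the minus strand at chr6:84571414-84593908. Its FPKM was 0.0689, 0.0966 and 0.209 in DMSO, 0.138, 0.128 and 0.289 in E2, and 0.0590, 0.104 and 0.209 in 4OHT. Replicate 3 was the highest in every condition, and E2 was above DMSO by 2.01-fold, 1.32-fold and 1.39-fold within the replicate numbers at values too low to test. Its relative *Cyp26a1*, at chr19:37697798-37701536 on the plus strand, was the most abundant enzyme of the family, with 2.29, 4.31 and 8.31 FPKM in DMSO, 1.52, 1.21 and 5.19 in E2, and 2.93, 3.29 and 7.90 in 4OHT. E2 was the lowest condition for *Cyp26a1* under each replicate number, at 0.663, 0.281 and 0.624 of DMSO.

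The repeats in front of *Rarb* and *Cyp26a1* are shown because retinoic acid receptors are known to bind a direct repeat of AGGTCA-like hexamers spaced by 5 bases. With the same hexamers and both strands searched, such a repeat was in 32 of the 32851 RefSeq windows (0.0974%), these among them. The capitals mark the hexamers. The first stretch is chr14:16575508-16575534 on the minus strand and the second is chr19:37697771-37697797 on the plus strand, both on GRCm38.p6 and written 5′ to 3′ on the strand of the gene.

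Rarb: ggaagGGTTCAccgaaAGTTCActcgc

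Cyp26a1: aaagaTGAACTttgggTGAACTaattt

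In *Cyp26a1* the repeat is read on the strand opposite to the gene. No window of the other members that could be searched, *Dhrs9*, *Dhrs3*, *Aldh1a1*, *Aldh1a2* and *Cyp26b1*, held a direct repeat spaced by 5 or by 2 bases. Of the genes with the repeat, *Rarb* was close to the bottom of the scale in all samples and *Cyp26a1* was above 1 FPKM in all samples.

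Set side by side, the tested members had a common direction within the replicate numbers in the E2 comparison. E2 was above DMSO in all 3 numbers for *Dhrs9*, *Dhrs3*, *Rdh10*, *Aldh1a2* and *Aldh1a3*, and below it in all 3 for *Crabp2*. Over all 11339 gene rows tested, 28.1% were higher and 24.3% lower in all 3 numbers. The ranges of E2 and DMSO did not overlap for *Dhrs9*, *Rdh10* and *Aldh1a2*, each higher in E2, beside 9.14% of all rows. The median fitted log2 difference of the 6 members was 0.52, against -0.00 over all rows. The limma fit without a pairing called 0 of the 6 members at a Benjamini-Hochberg adjusted p under 0.05, beside 0.512% of all rows (0.494% higher and 0.0176% lower). With the replicate number as a block it called 5 of them, all higher in E2, beside 15% of all rows (10.4% higher and 4.63% lower). Since the choice of the members used this comparison, nothing is read from these counts.

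For 4OHT against DMSO, the ratio of mean FPKM lay between 1.05 and 1.22 for 5 of the 6 tested members and was 0.422 for *Dhrs9*. *Rdh10*, *Aldh1a2*, *Aldh1a3* and *Crabp2* were above DMSO in all 3 replicate numbers and *Dhrs9* below it in all 3, beside 30.2% and 15.6% of all rows. The ranges overlapped for all 9 genes, while they did not overlap, for 4.37% of all rows with 4OHT higher and 3.57% with 4OHT lower. The median log2 difference of the 6 tested members was 0.15, against 0.03 over all rows. Limma with Benjamini-Hochberg adjustment called 0 of 11339 rows and so 0 members, 0% of rows with or without the block, although 313 rows had an unadjusted p under 0.05 without the block and 1480 with it.

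**Figure D3:**
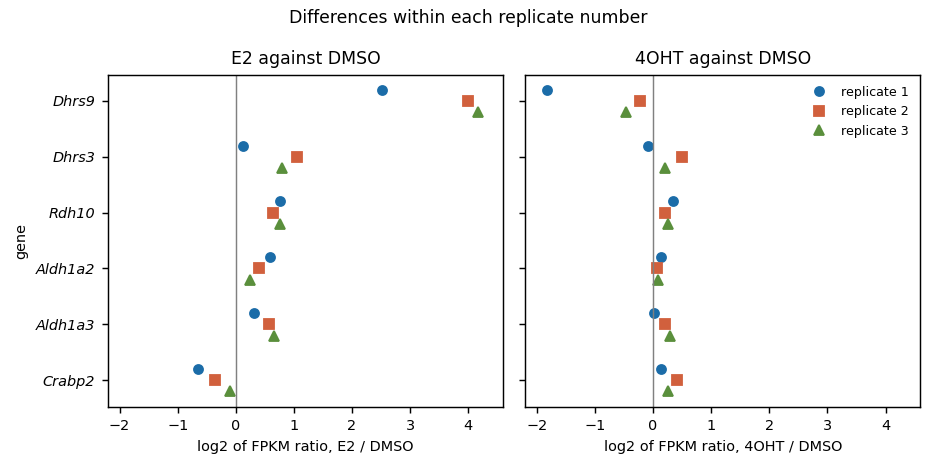
Log2 of the FPKM ratio of E2 to DMSO (left) and 4OHT to DMSO (right) within each replicate number, for the 6 members with enough signal to test, 1 point per replicate number. E2 points lie right of 0 for 5 genes and left of it for *Crabp2*, and all 4OHT points of *Dhrs9* lie left of 0. Both panels share the DMSO samples.

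In E2 against 4OHT, *Dhrs9* and *Rdh10* were higher in E2 than in 4OHT without overlap, beside 8.4% of all rows higher and 9.9% lower in this way. *Crabp2* was lower in E2 than in 4OHT under all 3 replicate numbers and 5 other tested members were higher, beside 30.9% and 24.3% of all rows. For *Dhrs9* the ratio of E2 to 4OHT was 20.1, 18.6 and 24.8 within the replicate numbers, more even than its ratio to DMSO. The median log2 difference of the 6 members was 0.37, against -0.01 over all rows. Limma with Benjamini-Hochberg adjustment called 0 members without the block, beside 0.159% of all rows. It called 5 with the block, beside 16.2% of all rows (8.63% higher and 7.6% lower). This comparison shares its E2 samples with the one against DMSO, and it also bore on the choice of the members, so nothing is read from these counts.

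A wider list of 50 genes of vitamin A uptake, retinoid metabolism, receptors and known retinoic acid targets gave 49 genes with a row of their own and 25 that passed the filter. *Rdh5* had only a row joined with *Bloc1s1*. The list was drawn up with earlier results of these data known, so its p-values are not those of a list blind to the data. In the fit without a pairing, *Fabp5* alone rose with E2, and no gene of the list passed for the other comparisons. With the block, 5 genes were higher and 3 lower in E2 than in DMSO, 0 differed between 4OHT and DMSO, and 5 were higher and 6 lower in E2 than in 4OHT. Over all rows, the fit without a pairing called 0.512% for E2 against DMSO, and the blocked fit called 15% for E2 against DMSO (10.4% higher and 4.63% lower) and 16.2% for E2 against 4OHT (8.63% higher and 7.6% lower), and 0% for 4OHT against DMSO, so the counts are given as a description. The median log2 difference of the 25 genes was 0.04, 0.05 and 0.04 in the 3 comparisons, beside -0.00, 0.03 and -0.01 over all rows.

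*Fabp5*, a fatty acid binding protein that can also carry retinoic acid, was the most abundant gene of the list with E2. Its FPKM was 228, 238 and 197 in DMSO, 438, 375 and 342 in E2, and 241, 257 and 205 in 4OHT. The E2 samples lay above all others, at 1.92, 1.57 and 1.74 times their DMSO partners. The log2 difference of E2 from DMSO was 0.80 (SE 0.12), with a limma adjusted p of 0.0476 by Benjamini-Hochberg, and 0.00161 with the block. In the fit without the block *Fabp5* passed in 0 of 9 fits that each left out 1 sample, in which its log2 difference lay between 0.70 and 0.88. Against 4OHT the difference was 0.71, with an adjusted p of 0.084 in the limma fit and 0.00325 with the block.

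Among genes that oxidise or reduce retinol and retinal, *Rdh11* (a retinal reductase) and *Adh1* (an alcohol dehydrogenase that accepts retinol) were higher in E2 only when the block was used. *Rdh11* was 30.8, 29.4 and 25.8 FPKM in DMSO and 43.5, 37.1 and 35.7 in E2, without overlap, and the log2 difference of 0.42 had a limma Benjamini-Hochberg adjusted p of 0.132, or 0.0121 with the block. *Adh1* was 1.64, 0.754 and 0.565 FPKM in DMSO and 2.62, 2.06 and 1.53 in E2, which overlap. Its log2 difference of 0.65 had an adjusted p of 0.444 in limma, or 0.00789 with the block. Outside E2, only the first DMSO and the first 4OHT sample of *Adh1* reached 1 FPKM. It was thus tested only through its E2 samples, and nothing is read from its adjusted p-values. *Adh7* and *Adh5*, at 175 and 80.5 FPKM on average the strongest of this group, did not pass for E2 against DMSO in either fit. *Rdh13* and *Dhrs4* were lower in E2 than in 4OHT with the block, with log2 differences of -0.24 and -0.25. Without replicate 1, the blocked limma fit of E2 against DMSO called 3 genes of the list, *Fabp5* (adjusted p 0.0167), *Adh1* (0.0235) and *Rdh11* (0.036), among 542 rows called in all.

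*Stra6*, the membrane receptor that takes up retinol, was 21.1, 17.4 and 28.9 FPKM in DMSO, 14.7, 15.4 and 23.6 in E2, and 23.1, 19.9 and 32.9 in 4OHT. It was lowest with E2 under each replicate number, with overlapping ranges. Its log2 difference of -0.31 from DMSO had a limma Benjamini-Hochberg adjusted p of 0.684, or 0.0237 with the block, and without replicate 1 the blocked value was 0.0801. In the fit without the block this difference ran from -0.52 without the third E2 sample to -0.13 without the third DMSO sample. *Cyp26a1*, described with its promoter repeat, had a log2 difference of -0.75 (SE 0.53) from DMSO, with an adjusted p of 0.648 in limma, 0.0308 with the block and 0.0631 with the block and without replicate 1. With 1 sample left out of the fit without the block, this difference ran from -1.21, without the third E2 sample, to -0.36, without the third DMSO sample. Its relative *Cyp26c1* averaged 0.117 FPKM and was not tested.

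Of the receptors, *Rarg* was the strongest at 22.8 FPKM on average, followed by *Rara* at 12.1, *Rxra* at 12.1 and *Rxrb* at 8.56, while *Rxrg* averaged 0.0059. *Rara* was 13.0, 9.86 and 10.7 FPKM in DMSO and 15.1, 12.5 and 12.3 in E2, a log2 difference of 0.24 with a limma Benjamini-Hochberg adjusted p of 0.57, or 0.0106 with the block and 0.0747 with the block and without replicate 1. *Rxra* was lower in E2 than in 4OHT with the block only (log2 difference -0.19), and *Rarg* and *Rxrb* did not pass in any comparison. Of 13 known retinoic acid targets 9 were tested. With the block, *Tgm2* (transglutaminase 2) was higher in E2 than in DMSO (log2 difference 0.25, limma Benjamini-Hochberg adjusted p 0.00928) and *Hoxb2* was lower (-0.13, adjusted p 0.0404), and neither passed without the block or without replicate 1. With 1 sample left out of the fit without the block, the *Tgm2* difference ran from 0.015, without the third E2 sample, to 0.51, without the third DMSO sample. *Gprc5a* and *Meis2*, at 68.8 and 21.9 FPKM on average, did not pass in any comparison.

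**Figure D4:**
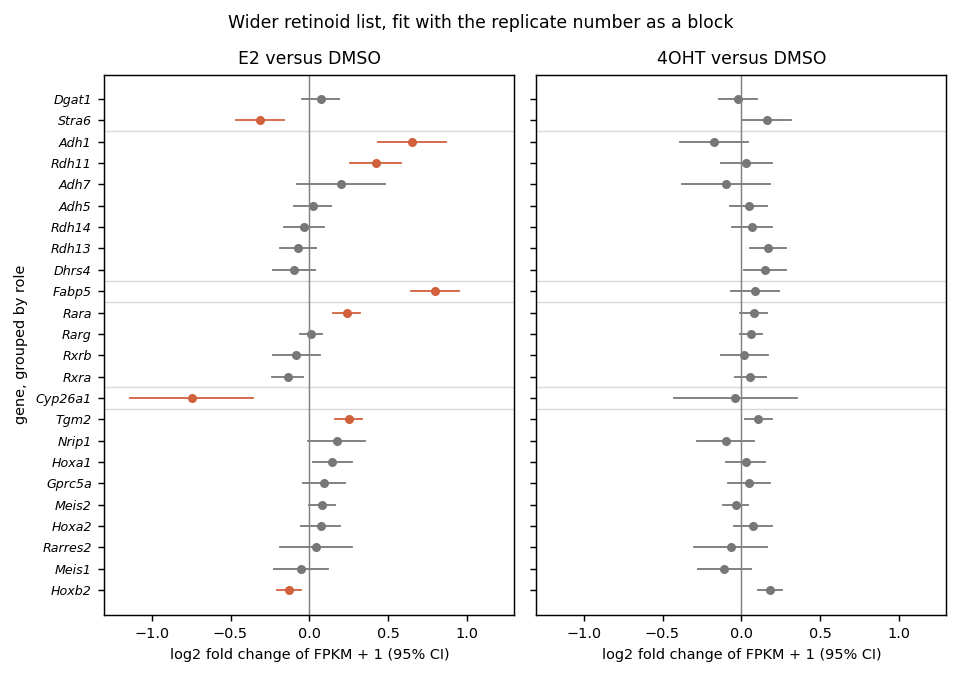
Fitted log2 difference on the FPKM + 1 scale with its 95% interval for tested genes of the wider list, from the fit blocked by replicate number, E2 against DMSO on the left and 4OHT against DMSO on the right. Orange marks an adjusted p under 0.05. *Fabp5* is farthest right at 0.80, *Cyp26a1* farthest left at -0.75, and no gene is orange for 4OHT.

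The gene rows whose level followed *Dhrs9* most closely over the 9 samples were sought among 11093 others, tested and without a 0, by Pearson's r of log2(FPKM + 1). They were *Ern1* (r = 0.99), *5031439G07Rik* (0.985), *Samd5* (0.985), *Cflar* (0.984) and *Ttc39b* (0.984). *Ern1* averaged 7.53 FPKM in DMSO, 13.8 in E2 and 6.11 in 4OHT. The points share 9 libraries, 3 of them with E2, and the highest of many correlations is picked here, so these values describe likeness in these samples and no more.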

How the data were processed

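RNA sequencing of FVB MOE cells was analysed in 9 samples, 3 each for DMSO, E2 and 4OHT, grouped by the treatment and replicate labels. The authors aligned reads to mm10 with TopHat and ran Cufflinks over the UCSC gene annotation (the submitters' notes name TopHat2 2.0.8b and Cuffdiff 2.1.1), and the deposited values are FPKM. Absolute depth is unknown from FPKM, and no counting interval is given. The paper's supplement lists read numbers for each sample, which were not used here. The estimate depends on how reads of similar or overlapping genes were shared out, and an exact 0 can be a failed estimate. Zeros were kept as values.

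The 9 members and the gene lists were chosen with earlier results of these data known. The 11339 rows that reached 1 FPKM in 3 or more samples entered a limma fit (R 4.3.3, limma 3.58.1, trend, tested on simulated data) on log2(FPKM + 1) with 1 coefficient per condition over all 9 samples and Benjamini-Hochberg adjustment within each comparison. The threshold was an adjusted p under 0.05. The FPKM of members are described without a test, since they were chosen from these values. The genes named are the members and, from the wider list, those called in a fit, the receptors and CYP26 enzymes, and the highest by level.

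The same fit was run with the replicate number as a block, and its values stand beside those without it where a call changes. The deviations of same-numbered samples from their condition means correlated with a mean r of 0.69 (0.52 to 0.83, all 9 pairs over 0.1) over 11094 rows without an exact 0, and of 0.16 (5 of 9 pairs over 0.1) over all tested rows. From the rows without a 0 the numbers were taken to pair the samples, before the calls of the fits were compared.

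Alternatives were a pseudocount of 0.1, no filter and a filter at 5 FPKM, upper-quartile scaling, equal FPKM totals, only the 6 samples compared, zeros taken as missing with and without the block, an adjusted p under 0.01, and each sample left out. Leaving out replicate 1 of all conditions, with and without the block, was added after the data were examined. Gene positions came from GENCODE M21 on GRCm38, and promoter windows from RefSeq on GRCm38.p6, which matched 6 of the 9 members. *Muc16* was not analysed here, and neither were the proteins. A gene of the wider list is counted but its values are not reported here or drawn.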

Additional observations from a re-analysis of the deposited data

How the results depend on the processing

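The E2 differences of the 6 tested members from DMSO and from 4OHT kept their sign under every alternative run, with *Dhrs9* between 2.29 and 3.41 on the log2 scale against DMSO and between 2.81 and 4.18 against 4OHT, where 4.18 came with a pseudocount of 0.1. For 4OHT against DMSO, *Dhrs9* kept its sign in 19 of 20 alternatives, *Dhrs3* in 17 of 20 and *Aldh1a3* in 17 of 19, and each change of sign came from leaving out 1 DMSO or 4OHT sample. Scaling by the upper quartile or to equal totals moved the median of all rows by less than 0.1.

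Counts of called rows turned mainly on the replicate block. For E2 against DMSO, 58 rows were called, 1702 with the replicate block, 2094 with zeros as missing and the block, 32 with no filter, 33 with equal totals, 8 with only the 6 samples compared, 6 at an adjusted p under 0.01, 125 without replicate 1 and 542 without replicate 1 in the blocked fit, and 8 to 50 with 1 sample left out. For 4OHT against DMSO the count of 0 became 3 with only 6 samples, 14 with zeros as missing and the block, 4 without replicate 1 with or without the block, and 0 to 2 with 1 sample left out. For E2 against 4OHT the count of 18 became 1840 with the block, 10 with the pseudocount of 0.1, 9 with no filter, 7 with only 6 samples, 37 with zeros as missing, 2435 with the block added, 0 at an adjusted p under 0.01, 72 without replicate 1, 234 with the block added, and 0 to 23 with 1 sample left out.

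The counts over all rows given above belong beside those of the members and of the wider list in the same settings. With the block, 15% of all rows were called for E2 against DMSO and 16.2% for E2 against 4OHT. Members and list were chosen with results of these data known, so their counts are only a description. For the members, the count of 0 against DMSO became 5 with the block, alone or with zeros as missing, 1 without replicate 1 and 4 with the block added, and 0 to 1 with 1 sample left out. Against 4OHT it became 5 with the block, alone or with zeros as missing, 1 with zeros as missing, 1 without replicate 1, 2 with the block added, and 0 to 1 with 1 sample left out. For the wider list against DMSO, the count of 1 became 8 with the block, alone or with zeros as missing, 0 with no filter, with 6 samples, at an adjusted p under 0.01 and without replicate 1, 3 without replicate 1 in the blocked fit, and 0 to 0 with 1 sample left out. Against 4OHT the count of 0 became 11 with the block, 12 with zeros as missing and the block, and 3 without replicate 1 in the blocked fit. *Tgm2* against 4OHT (log2 difference 0.14) ran from -0.092 without the third E2 sample to 0.36 without the third 4OHT sample. The cause of these differences was not tested.

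With 3 samples per condition and 1 clone, small differences of weak genes were not resolved, and *Rarb*, *Cyp26b1* and *Aldh1a1* lay too low to test.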
